A study of Mus musculus with 6 samples.

Results

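The genes described here are 7 genes of antigen presentation on major histocompatibility complex (MHC) class II: Ciita, H2-Aa, H2-Ab1, H2-Eb1, H2-DMa, Cd74 and Ctss. They were chosen by name, and each was measured by the 1 probe set that the array annotation assigns to it, 7 of 35557 probe sets in all, or 7 of the 19938 genes measured by a probe set naming a single gene. Levels are given for 6 arrays from 3 established mouse cell lines, each after 4 h of interferon-beta (IFN-β) and unstimulated: the macrophage line RAW264.7 and the fibroblast lines L929 and NIH3T3. The labels give no IFN-β dose and no genetic alteration, and each of the 6 groups had 1 array, so that nothing within a line has a replicate. The lines are clonally grown or long-passaged cultures from different mouse strains. RAW264.7 is a virus-transformed tumour line, which limits it as a model of a primary macrophage. The study asked which genes IFN-β regulates in these cells.

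MHC class II molecules are heterodimers of an α and a β chain that carry peptides from endocytosed proteins to CD4+ T cells. The invariant chain, encoded by Cd74, holds the new dimer and escorts it to endosomes, where cathepsin S, encoded by Ctss, degrades the invariant chain, and the H2-DM heterodimer exchanges the remaining fragment for peptide. Ciita encodes a coactivator that binds no DNA itself but acts through factors bound to the X and Y boxes of class II promoters. Dendritic cells and B cells express class II constitutively. In macrophages and fibroblasts the classical inducer of Ciita is the type II interferon, IFN-γ, acting in part through Irf1, whereas IFN-β is a type I interferon.

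Promoter sequences are shown first, because the X and Y boxes through which Ciita acts, and the element through which type I interferon acts, can be read in them. RefSeq windows of 300 bases (build GRCm38.p6, 250 bases before the annotated start and 50 from it on) were matched by symbol for 4 of the 7 genes, H2-Aa, H2-Eb1, Ctss and H2-DMa, the last with 2 windows. The 3 printed here run 5′ to 3′ on the gene's strand, and capitals mark the letters matched on either strand by ATTGG (the Y box core), CTGATTGG (an extended Y box that contains it), AGCAACTGATG with any base allowed at the third and the seventh letter (the X box core), AGCAACNG (a shorter X box core that overlaps it), TGACG (from the cyclic AMP response element) and GAAACCGAAA with any base allowed at the fifth and the sixth letter (the core of the interferon-stimulated response element, ISRE).
H2-Eb1, chr17:34305617-34305916, plus strand: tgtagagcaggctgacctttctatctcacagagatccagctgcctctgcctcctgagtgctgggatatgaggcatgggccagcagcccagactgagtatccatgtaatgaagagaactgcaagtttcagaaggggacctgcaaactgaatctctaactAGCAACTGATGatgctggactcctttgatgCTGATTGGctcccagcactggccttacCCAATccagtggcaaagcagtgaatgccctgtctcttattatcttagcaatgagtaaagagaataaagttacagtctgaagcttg
H2-Aa, chr17:34287774-34288073, minus strand: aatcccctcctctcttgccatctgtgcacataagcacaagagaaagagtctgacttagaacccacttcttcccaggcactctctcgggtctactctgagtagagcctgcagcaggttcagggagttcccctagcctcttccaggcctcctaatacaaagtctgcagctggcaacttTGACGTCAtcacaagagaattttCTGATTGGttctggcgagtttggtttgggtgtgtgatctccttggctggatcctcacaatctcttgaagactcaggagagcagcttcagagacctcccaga
Ctss, chr3:95526536-95526835, plus strand: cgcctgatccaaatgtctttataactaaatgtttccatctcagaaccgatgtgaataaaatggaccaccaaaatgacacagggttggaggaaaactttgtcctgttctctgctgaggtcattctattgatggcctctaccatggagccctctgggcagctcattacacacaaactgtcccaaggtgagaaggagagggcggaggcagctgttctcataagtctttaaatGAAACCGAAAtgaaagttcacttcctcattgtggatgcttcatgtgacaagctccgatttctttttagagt

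In H2-Eb1 the X box core AGCAACTGATG lay 92 to 82 bases before the start and the extended Y box 62 to 55 bases before it, with 19 bases between them. The X box core, its free letters allowed, occurs in 0.298% of 32851 promoter windows of the same length, AGCAACNG in 5.14% and CTGATTGG in 4.1%. A second ATTGG lay 35 to 31 bases before the start on the other strand. In H2-Aa the extended Y box lay 51 to 44 bases before the start, 15 bases after the run TGACGTCA, which holds TGACG on both strands. TGACG occurs in 20.8% of windows and ATTGG alone in 37.4%. The Ctss window had no match to these letters but 1 to the ISRE core, GAAACCGAAA, 21 to 12 bases before the start, which 3.44% of windows hold. The 2 windows of H2-DMa held 1 match together, an ATTGG. Bases outside these windows were not searched, and which start of H2-DMa these lines use was not tested. A match describes the letters only.

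The probe sets of the class II chains, H2-DMa and Ciita gave signals near or below the array median on all 6 arrays, between 2.90 and 5.44. Such signals are called dim here. H2-Eb1 and H2-DMa were at or just above the median in unstimulated RAW264.7, whereas H2-Aa was below the lower quartile on all 6 arrays. None of these genes moved by more than 0.87 with IFN-β in any line. Cd74 and Ctss depended on the line: both were highest in RAW264.7, and Cd74 was intermediate in L929. Neither moved by more than 0.47 on the log2 scale with IFN-β. The values below are log2 levels as RMA gives them. They compare 1 gene across arrays, since probe sets differ in how strongly they hybridise. The lines come from different mouse strains. Whether sequence differences between strains alter the signal of a probe set, and so a comparison between lines, was not tested. The median over all genes of an array lay between 5.07 and 5.49. In RNA from whole cultures, fewer expressing cells and less RNA per cell cannot be told apart.

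Ciita (probe set 10433507), the coactivator, had levels of 3.99 in IFN-β-treated and 3.96 in unstimulated RAW264.7 cells. In L929 they were 4.35 with IFN-β and 4.18 without, and in NIH3T3 4.80 with IFN-β and 3.93 without. The treated NIH3T3 array stood above the other 5, which lay between 3.93 and 4.35. H2-Aa (10450154), an α chain, had 3.08 in treated and 2.99 in unstimulated RAW264.7, 3.20 and 2.90 in treated and unstimulated L929, and 3.44 and 3.13 in treated and unstimulated NIH3T3. Treated and unstimulated arrays overlapped over the lines, and no line stood apart. Its partner chain gene H2-Ab1 (10444291) had 4.05 in treated and 3.64 in unstimulated RAW264.7, 3.53 and 3.99 in treated and unstimulated L929, and 3.78 and 3.62 in treated and unstimulated NIH3T3. The order of treated and unstimulated arrays was reversed in L929.

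H2-Eb1 (10444298), the β chain of the other mouse class II dimer, had 5.02 in treated and 5.10 in unstimulated RAW264.7, 4.82 and 4.91 in treated and unstimulated L929, and 5.44 and 5.09 in treated and unstimulated NIH3T3. H2-DMa (10444229), the α chain of the peptide exchanger, had 4.73 in treated and 5.11 in unstimulated RAW264.7, 5.14 and 4.96 in treated and unstimulated L929, and 4.62 and 4.55 in treated and unstimulated NIH3T3. For neither gene did the macrophage line stand apart from the fibroblasts. Over the 6 arrays the 5 genes Ciita, H2-Aa, H2-Ab1, H2-Eb1 and H2-DMa ranged from 2.90 to 5.44 with a median of 4.12. As a check of other cell types, the 5 B cell markers measured ranged from 2.66 to 5.16 (median 4.03) and the 7 dendritic cell markers from 2.48 to 5.37 (median 4.05). Pax5 and Cd79b were the brightest of the first list and Zbtb46 and Ccr7 of the second. Levels of different probe sets are not comparable, and these ranges set no background for the class II genes. The values used hold no detection call, so whether dim probe sets report transcript was not tested.

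Cd74 (10456005), the invariant chain gene, had 8.69 in treated and 8.30 in unstimulated RAW264.7, 6.98 and 6.79 in treated and unstimulated L929, and 3.82 and 4.29 in treated and unstimulated NIH3T3. The 3 lines did not overlap. Between unstimulated arrays, the RAW264.7 signal was 2.85-fold above that of L929. It was 16.1-fold above that of NIH3T3, and the L929 signal 5.66-fold above it. Whether the dim NIH3T3 signal is above background was not tested, so folds against it are ratios of signal and not of transcript. Ctss (10494271), the protease gene, had 12.30 in treated and 12.07 in unstimulated RAW264.7, 4.84 and 4.48 in treated and unstimulated L929, and 4.44 and 4.41 in treated and unstimulated NIH3T3. RAW264.7 alone was high for Ctss. Its unstimulated signal was 193-fold above that of L929 and 202-fold above that of NIH3T3, again as ratios of signal to dim signals whose detection was not tested.

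**Figure D1:**
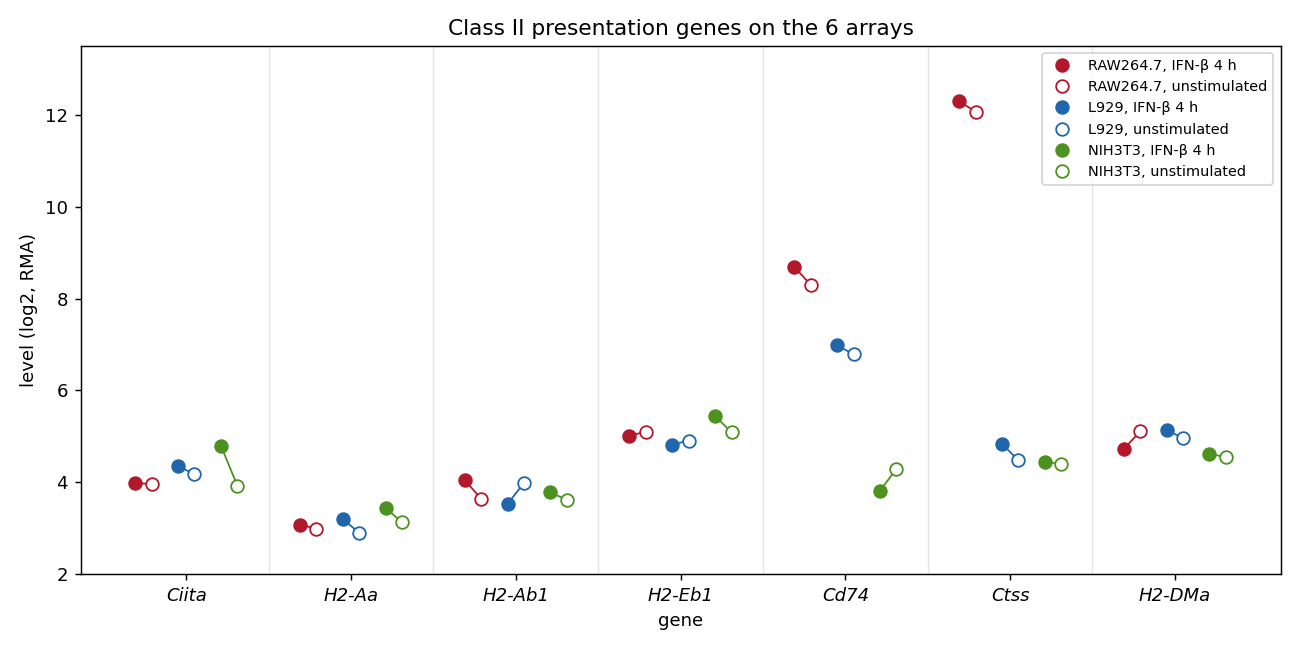
Log2 level (y axis) of the 7 class II presentation genes (x axis) on each of the 6 arrays; filled points are arrays after 4 h of IFN-β and open points unstimulated arrays, joined within a line, with 1 array per point. Cd74 falls into 3 levels by line and Ctss is high in RAW264.7 only, at 12.30 and 12.07, while the other 5 genes stay between 2.90 and 5.44 on every array.

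The differences between lines were tested in a limma model with line and treatment, fitted to all 19938 genes, in which each line has 2 arrays, 1 per condition. The spread in this test is how far the lines differ in their response to treatment, not the spread between cultures, and a line is not a sample of its cell type. Cd74 was higher in RAW264.7 than in the mean of the fibroblast lines by 3.03 ± 0.21 on the log2 scale (SE), 8.15-fold in signal, with a limma adjusted p of 2.22e-06. Leaving out NIH3T3 reduced this difference to 1.61 and leaving out L929 raised it to 4.44, so its size depends on which fibroblast line is used. Each of these 2 fits has 1 residual degree of freedom, so only the size of the difference is read from them. Ctss was higher by 7.64 ± 0.17 (adjusted p = 4.15e-09). These were 2 of the 7 genes higher and 0 lower, where 13.0% of all genes tested were higher and 12.3% lower.

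The other 5 genes did not pass between RAW264.7 and the fibroblasts. Their differences were -0.34 for Ciita (95% interval -0.81 to 0.12), -0.13 for H2-Aa (-0.51 to 0.25), 0.12 for H2-Ab1 (-0.34 to 0.58), -0.00 for H2-Eb1 (-0.41 to 0.40) and 0.10 for H2-DMa (-0.31 to 0.52). The intervals thus hold differences of up to 1.5-fold higher in RAW264.7, for H2-Ab1. With the arrays centred on their medians, H2-Aa and H2-Eb1 were at 0.06 and 0.19. Between the fibroblast lines, Cd74 was higher in L929 than in NIH3T3 by 2.83 ± 0.24 (7.10-fold in signal, limma adjusted p = 2.37e-05). It was the only one of the 7 to pass there, where 7.09% of all genes were higher in L929 and 9.0% lower. H2-DMa differed by 0.46 (interval -0.02 to 0.95, adjusted p = 0.206).

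Other class II genes were also dim. Of 6 further chains and chaperones listed, 4 were measured by a single-gene probe set. Of these 4, 1 was higher in RAW264.7 and 0 were lower, where 13.0% of all genes were higher and 12.3% lower. The 1 called was H2-Ea, an α chain gene that RefSeq lists as a transcribed pseudogene in the reference strain. Its difference was 0.53 ± 0.17 (limma adjusted p = 0.0470). Its levels were 3.99 in treated and 4.03 in unstimulated RAW264.7, against 3.57 and 3.46 in treated and unstimulated L929 and 3.34 and 3.55 in treated and unstimulated NIH3T3. H2-Oa and H2-Ob, which encode the inhibitor of H2-DM, differed by 0.51 and 0.20 (adjusted p = 0.0704 and 0.561).

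Of 9 genes of endosomal processing, 6 were higher in RAW264.7 and 1 was lower, against 13.0% and 12.3% of all genes. Ifi30, a thiol reductase that unfolds antigens, was higher by 2.0 ± 0.18 (limma adjusted p = 1.67e-05), Lgmn, the endopeptidase legumain, by 1.62, and the cathepsin genes Ctsz and Ctsb by 1.55 and 0.85. The cystatin gene Cst3, an inhibitor of cathepsins, was higher by 0.99, and Sppl2a, a protease that clears the last membrane fragment of the invariant chain, by 0.94. Ctsl, which degrades the invariant chain in thymic epithelium, was the lower one (-1.08 ± 0.18, adjusted p = 0.00148). Ifi30, Lgmn, Ctsz and Ctsh were also higher in L929 than in NIH3T3, by 1.88, 0.77, 1.02 and 1.77, and Ctsl was at -1.45, making 4 higher and 1 lower of 9, against 7.09% and 9.0% of all genes. Cd74, Ifi30, Lgmn and Ctsz thus passed in both comparisons and shared an order of RAW264.7, L929 and NIH3T3 on the unstimulated arrays. Ctsb, Cst3, Ctss and H2-DMa had the same order there without passing between the fibroblast lines. The share of all genes with this order was not counted. For Ifi30 the unstimulated levels in this order were 10.53, 9.67 and 7.55. These processing proteins also serve general lysosomal degradation.

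The macrophage identity of RAW264.7 was plain in its markers. All 8 macrophage markers were higher there than in the mean of the fibroblast lines, against 13.0% of all genes. Lyz2 was at 12.04 in treated and 12.07 in unstimulated RAW264.7 cells and Cd68 at 11.07 and 11.05. The medians of the 8 were 10.93 on both RAW264.7 arrays and between 4.37 and 4.71 on the others. All 6 fibroblast markers were lower in RAW264.7 than in the mean of the fibroblast lines, against 12.3% of all genes, with a median difference of -5.59. For Thy1 this came from NIH3T3, at 10.09 in treated and 10.45 in unstimulated cells. Thy1 was at 4.66 and 5.11 in treated and unstimulated RAW264.7, and at 5.05 and 4.96 in treated and unstimulated L929. Ctss moved with the macrophage list. Cd74 was also higher in L929 than in NIH3T3, where 7.09% of all genes were higher and 9.0% lower. Of the 8 macrophage markers, 1 was higher there and 0 were lower in limma, the 1 being Lyz2 (1.52, adjusted p = 0.000447). The other 7 had differences below 0, down to -0.64 for Cd68, and the median of the 8 was -0.31. Their medians were 4.47 in treated and 4.37 in unstimulated L929, and 4.71 and 4.5 in treated and unstimulated NIH3T3. Any part of the macrophage markers in the level of Cd74 was not tested.

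**Figure D2:**
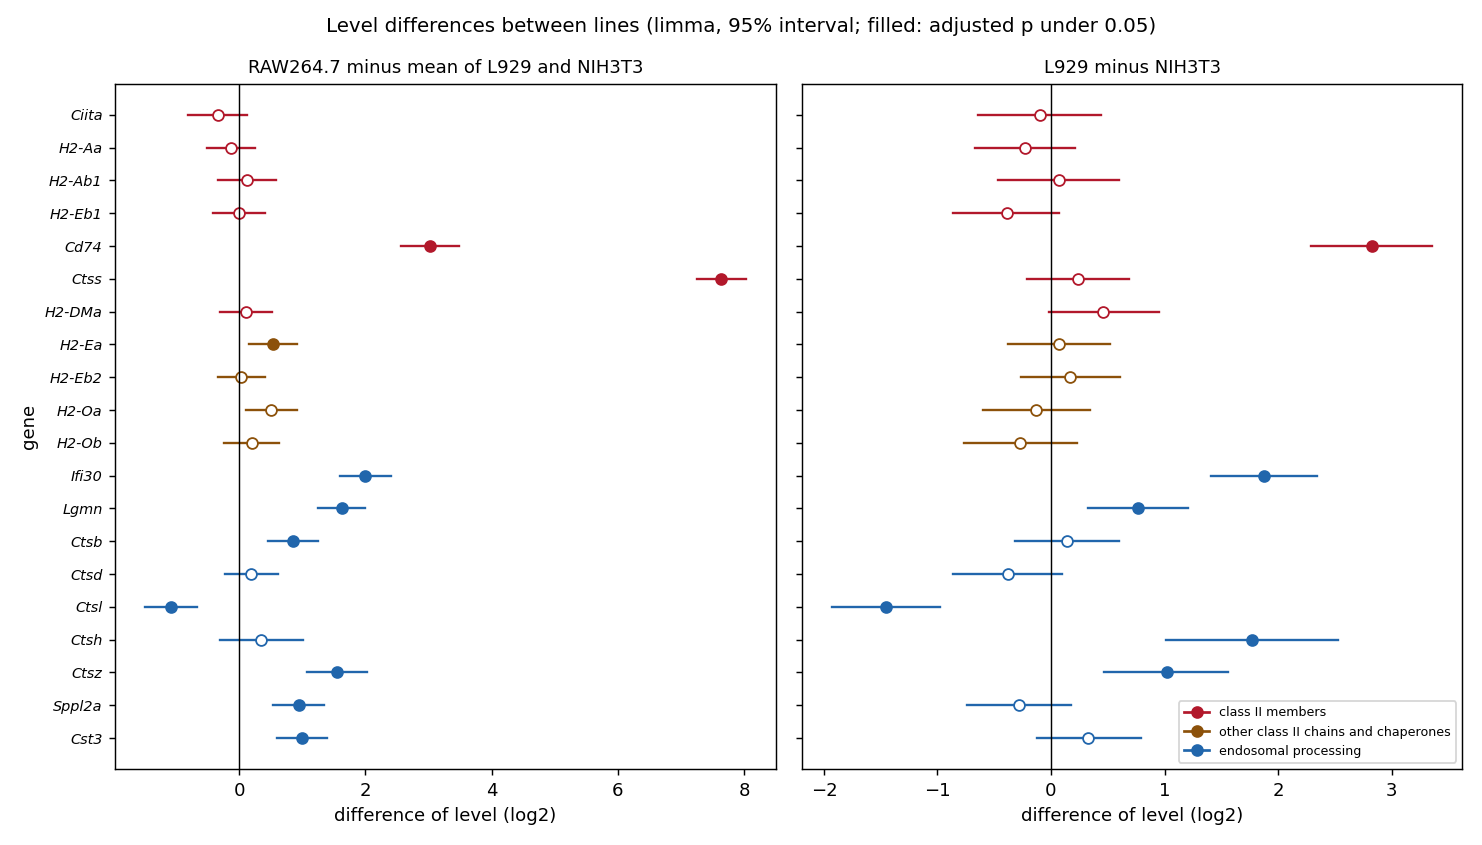
Difference of log2 level (x axis) for each gene (y axis) between RAW264.7 and the mean of L929 and NIH3T3 (left) and between L929 and NIH3T3 (right), from limma on 6 arrays; lines are 95% intervals, filled points have an adjusted p under 0.05, and colours mark the gene list. Ctss (7.64) and Cd74 (3.03) lie far to the right in the left panel, and Cd74 (2.83) again in the right one, while Ciita, H2-Aa, H2-Ab1, H2-Eb1 and H2-DMa have intervals that include 0 in both.

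The effect of IFN-β was first read within each line as the difference between 2 arrays, at the 3-fold threshold of the series' design text. None of the 7 genes reached it in any line, in 0 of 21 gene and line pairs. The share of all genes at least 3-fold higher was 0.617% in RAW264.7, 0.893% in L929 and 0.476% in NIH3T3, and the share lower was 0%, 0.01% and 0.0401% in the same lines. At 1.5-fold 1 of the 21 passed, Ciita in NIH3T3. At that fold 2.80% of all genes were higher in RAW264.7, 4.47% in L929 and 12.2% in NIH3T3, and 1.38%, 6.37% and 2.14% were lower in the same lines.

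That Ciita difference was 0.87 on the log2 scale, 1.83-fold, against 0.02 in RAW264.7 and 0.17 in L929. In NIH3T3, 599 of the 19938 genes were higher by at least as much. The stimulated NIH3T3 array also read higher in general among dim genes: its lower quartile was 4.1 against 3.79 on the unstimulated NIH3T3 array, and its median 5.49 against 5.22. With each array centred on its median the Ciita difference was 0.60, and after quantile normalization 0.58. The genes whose levels ran most like those of Ciita over the 6 arrays were Gpr162, an orphan receptor gene, Olfr286, an odorant receptor gene, and Tas2r140, a bitter taste receptor gene, with Pearson correlations of 0.985, 0.984 and 0.981 among 6938 genes that span at least 1 on the log2 scale. These describe 6 arrays that share 3 lines, and 21 genes reached 0.95. Olfr286 was at 4.65 in treated and 3.58 in unstimulated NIH3T3. With 1 array, a shift of its scale and a change in the cells cannot be told apart.

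For the other 6 genes the within-line differences lay between -0.47 and 0.41. Cd74 was at 0.39 in RAW264.7, 0.19 in L929 and -0.47 in NIH3T3, and in these lines 6.06%, 23.2% and 3.87% of all genes moved at least as far in the same direction. H2-Ab1 was at 0.41 in RAW264.7, -0.45 in L929 and 0.16 in NIH3T3. H2-DMa was at -0.39 in RAW264.7, 0.19 in L929 and 0.07 in NIH3T3. H2-Aa and Ctss were positive in each line, H2-Aa at 0.09, 0.29 and 0.31 and Ctss at 0.22, 0.36 and 0.02 in RAW264.7, L929 and NIH3T3. H2-Eb1 was at -0.08, -0.09 and 0.35 in the same lines. Ciita, H2-Aa and Ctss had the same sign in all 3 lines, but with the arrays centred or quantile normalized the NIH3T3 value of Ctss was -0.25 and that of H2-Aa 0.04 or 0.03. The median change of all genes was -0.03 in RAW264.7, -0.05 in L929 and 0.17 in NIH3T3. Relative to that median, the NIH3T3 changes were 0.71 for Ciita, 0.18 for H2-Eb1, 0.14 for H2-Aa, -0.01 for H2-Ab1, -0.1 for H2-DMa, -0.14 for Ctss and -0.63 for Cd74.

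**Figure D3:**
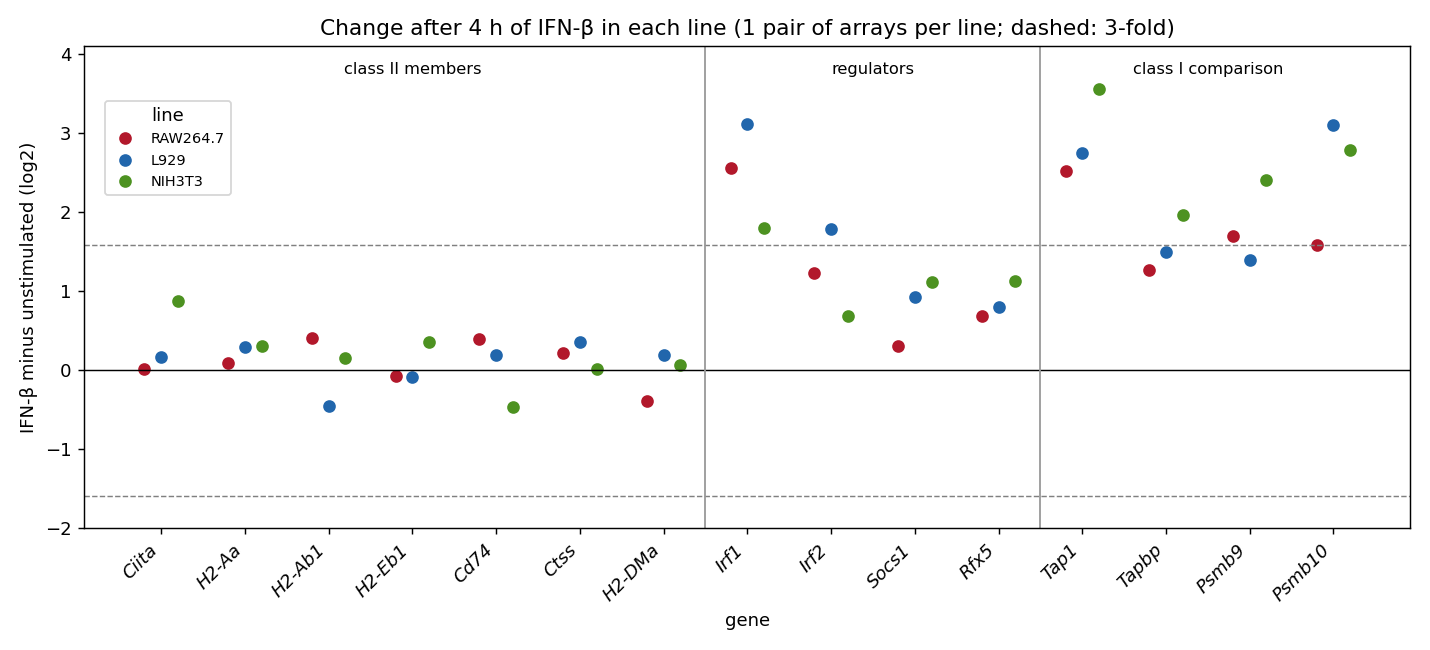
IFN-β minus unstimulated on the log2 scale (y axis) for the 7 class II genes, 4 regulators and 4 class I presentation genes (x axis), 1 point per line, each the difference of 2 arrays; dashed lines mark 3-fold. The class II points lie between -0.47 and 0.87, and those of Tap1 between 2.52 and 3.55. The class I genes shown are the 4 called for IFN-β, and the regulators had the largest mean changes of their lists. Nlrc5, B2m, Tap2 and Psmb8 were measured, not called and not drawn, with mean changes of 0.08, 0.49, 0.94 and 1.3.

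Across the lines, limma with line as a block called 0 of the 7 class II genes at an adjusted p under 0.05, where 0.732% of all genes were higher and 0% lower. At an unadjusted p under 0.05 it called 0 of the 7, and 838 genes higher and 254 lower of all 19938. Ciita had the largest mean change, 0.36 ± 0.20 (SE, 3 lines), 1.28-fold, with a 95% interval of -0.08 to 0.80 and an adjusted p of 0.964. The SD of its change between the lines was 0.45. Without NIH3T3 its mean was 0.1, below those of Ctss and Cd74 (0.29 each) and H2-Aa (0.19), and without RAW264.7 it was 0.52, so that the NIH3T3 arrays set both its size and its rank. H2-Aa followed with 0.23 (-0.13 to 0.59) and Ctss with 0.20 (-0.16 to 0.57). The other 4 means lay between -0.04 for H2-DMa and 0.06 for H2-Eb1. The median over the 7 was 0.06 and over all genes 0.03. In folds of signal the upper ends of the intervals were 1.74 for Ciita, 1.51 for H2-Aa, 1.48 for Ctss, 1.39 for both Cd74 and H2-Ab1, 1.36 for H2-Eb1 and 1.27 for H2-DMa. For the 5 dim genes these ends bound a change of signal, not of transcript. These SEs are drawn toward the spread of all genes by empirical Bayes.

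The response of RAW264.7 minus that of the fibroblasts was -0.50 for Ciita, 0.56 for H2-Ab1, 0.53 for Cd74 and -0.51 for H2-DMa, each with an SE of 0.49, and 0 of the 7 passed in limma (adjusted p = 1 for each). Over all genes 0.0802% were called higher and 0.155% lower at an adjusted p under 0.05. At an unadjusted p under 0.05, 0 of the 7 passed, and 100 genes were higher and 218 lower of all 19938. This test has 1 pair of RAW264.7 arrays, and its intervals are wide: for Cd74 from -0.44 to 1.5. With an infinite prior its SE is pooled over all genes and is the same for each. The intervals thus do not measure the spread of Cd74 or of any other single gene.

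The further class II genes gave no call either. Of the 4 other chains and chaperones measured, 0 passed for IFN-β in limma (0 at an unadjusted p under 0.05), with mean changes between -0.05 for H2-Ea and 0.12 for H2-Oa. H2-Ob was at -0.03, with -0.35 in RAW264.7 and 0.36 in NIH3T3. Among the 9 endosomal genes 0 passed (1 unadjusted, Sppl2a). Sppl2a had the largest mean change, 0.49 ± 0.17 (limma adjusted p = 0.642), positive in 3 of 3 lines, Ifi30 and Ctsl were both at -0.29, and Ctsh ranged from -0.79 in L929 to 0.82 in NIH3T3. Marchf1, a ubiquitin ligase that removes class II from the surface, had 0.41 (adjusted p = 0.825), its relative Marchf8 -0.19, and Cd83, which opposes Marchf1, 0.03, so 0 of these 3 passed (1 unadjusted, Marchf1).

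Of 12 measured regulators upstream of Ciita, 2 rose and 0 fell, where 0.732% of all genes were higher and 0% lower. At an unadjusted p under 0.05 in limma, 6 of the 12 passed, against 1092 of all 19938 genes. Irf1, a transcription factor that binds the IFN-γ-responsive promoter of Ciita, had levels of 8.99 in treated and 6.43 in unstimulated RAW264.7, 9.38 and 6.27 in treated and unstimulated L929, and 8.85 and 7.05 in treated and unstimulated NIH3T3. All treated arrays were above all unstimulated ones, and the mean change was 2.49 ± 0.23, 5.63-fold (limma adjusted p = 0.000655). With the mean over its probe sets in place of the brightest, the change of Irf1 was 1.51 (adjusted p = 0.0048). Irf2, a relative that binds the same element, rose by 1.23 ± 0.21 (adjusted p = 0.0291). The Irf2 call was lost with the arrays centred on their median (adjusted p = 0.0685), after quantile normalization (0.0505) and without L929 (0.145). Socs1, which blocks Jak kinases, had 0.78 (adjusted p = 0.203), with 0.30 in RAW264.7, 0.92 in L929 and 1.12 in NIH3T3. Jak2, a kinase of the IFN-γ receptor, had the widest range, with 1.28 in RAW264.7, 0.86 in L929 and -0.06 in NIH3T3 (adjusted p = 0.628).

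Of the 7 factors that bind class II promoters, 0 passed (1 unadjusted). Rfx5, the DNA-binding subunit of the complex on the X box, came nearest. It had 6.77 in treated and 6.09 in unstimulated RAW264.7, 5.75 and 4.95 in treated and unstimulated L929, and 6.36 and 5.24 in treated and unstimulated NIH3T3. Its level was higher with IFN-β in each of the 3 lines, by a mean of 0.87 ± 0.17, 1.83-fold (limma adjusted p = 0.0561). With genes below the median level left out its adjusted p was 0.0434, the one alternative in which it was under 0.05. It was 0.0505 to 0.0822 with other scaling, probe set averaging or variance settings, 0.0618 to 0.235 with a line left out, 0.346 with all probe sets and 1 without line in the model. Of its partners in the complex, Rfxank had a mean change of 0.22 and Rfxap of -0.05. Creb1, which binds beside it, was at -0.26, and Nfyc, a Y box factor, at 0.15, with 0.19 in RAW264.7, 0.48 in L929 and -0.22 in NIH3T3.

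Class I presentation genes give the comparison on the same arrays. Of 10 listed, 8 were measured by a single-gene probe set. Of these, 4 rose and 0 fell, where 0.732% of all genes were higher and 0% lower. At an unadjusted p under 0.05 in limma, 6 of the 8 passed, against 1092 of all 19938 genes. The class I heavy chain genes H2-K1 and H2-D1 were not among those measured. B2m, the class I light chain gene, was not called, with a mean change of 0.49 (limma adjusted p = 0.92). It had 0.37 in RAW264.7, 1.11 in L929 and -0.03 in NIH3T3. The genes that rose serve peptide transport, peptide loading and the proteasome, so class I chains are not the comparison. Tap1, which pumps peptides into the endoplasmic reticulum and lies in the class II region of the mouse MHC, had 8.52 in treated and 5.99 in unstimulated RAW264.7, 8.71 and 5.96 in treated and unstimulated L929, and 8.48 and 4.93 in treated and unstimulated NIH3T3. Its mean change was 2.94 ± 0.21, 7.68-fold (limma adjusted p = 0.000123). The immunoproteasome genes Psmb10 and Psmb9 rose by 2.49 and 1.83 and the peptide loading gene Tapbp by 1.58 (adjusted p = 0.00134, 0.00185 and 0.00203). Psmb8, another subunit, had 1.03 in RAW264.7, 2.51 in L929 and 0.34 in NIH3T3 (adjusted p = 0.222). Tap2, the partner of Tap1, had a mean change of 0.94 (adjusted p = 0.0506). Nlrc5, the class I counterpart of Ciita, was at 0.08 (adjusted p = 0.972), with 0.50 in RAW264.7, -0.06 in L929 and -0.20 in NIH3T3. The median change of these 8 genes was 1.44. As a check of the treatment, the interferon-stimulated genes Ifit1, Irf7, Usp18 and Cxcl10 rose by means of 3.96 to 6.33. The calls of these 4, of Irf1 and Irf2 and of the 4 class I genes were lost without line in the model (adjusted p = 0.199 to 1) and with all probe sets tested together (0.0567 to 0.352).

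**Figure D4:**
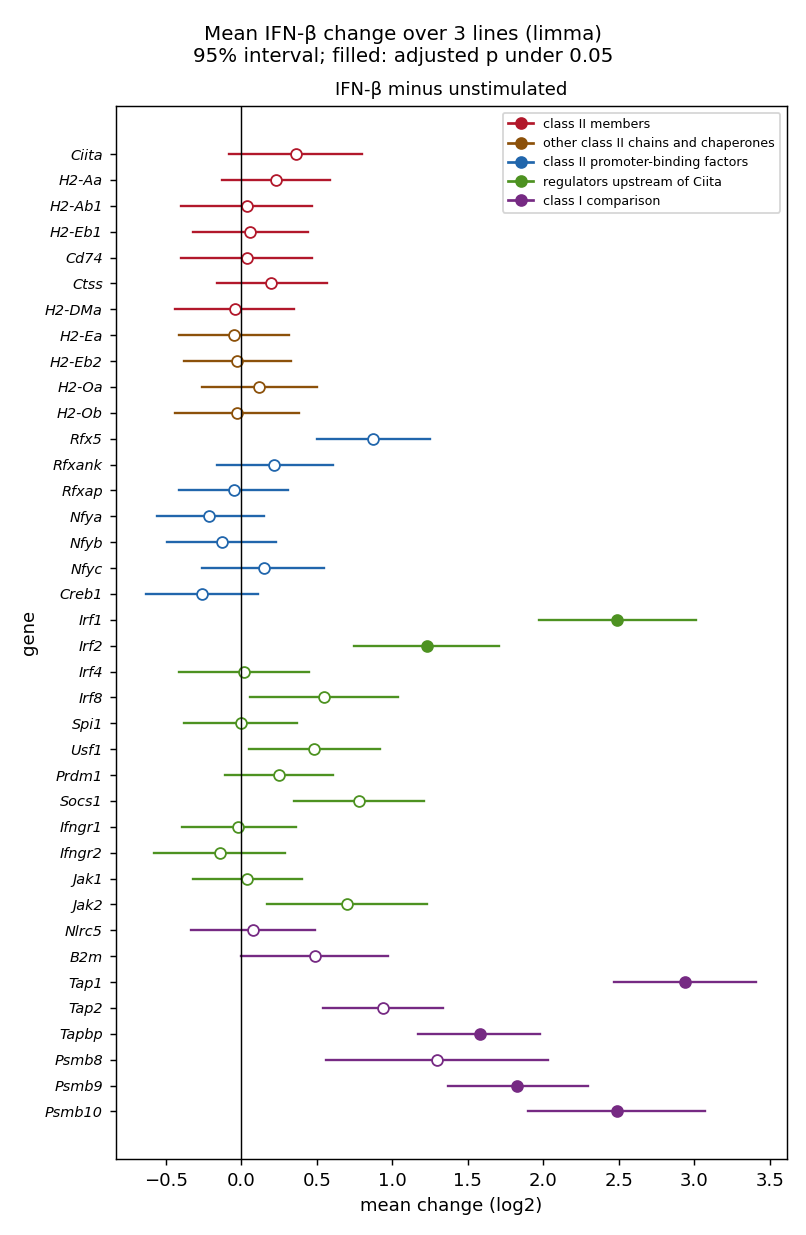
Mean IFN-β change over the 3 lines on the log2 scale (x axis) for the class II genes and 4 related lists (y axis), from limma with line as a block; lines are 95% intervals and filled points have an adjusted p under 0.05. All 7 class II intervals include 0, whereas Irf1 (2.49), Irf2 (1.23), Tap1 (2.94), Tapbp (1.58), Psmb9 (1.83) and Psmb10 (2.49) are filled.

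The genes whose levels ran most like those of Cd74 and Ctss over the 6 arrays, 2 per line, followed the order of the lines. For Cd74 these were the chemokine gene Ccl9, the clathrin adaptor gene Ap1g2 and Arhgap9, with Pearson correlations of 0.998, 0.997 and 0.990 among 2261 genes spanning at least 2 on the log2 scale. Ccl9 had 9.95 in treated and 9.81 in unstimulated RAW264.7, 8.51 and 8.29 in treated and unstimulated L929, and 5.86 and 6.03 in treated and unstimulated NIH3T3. For Ctss they were the phospholipase gene Plcg2, Dcstamp, a fusion protein of osteoclasts, and Parvg, a parvin of blood cells, with correlations of 0.9997, 0.9996 and 0.9996. A correlation of 0.95 or more was reached by 90 genes for Cd74 and 343 for Ctss, so that many genes shared these patterns.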

How the data were processed

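RNA from 6 cultures was labelled with a whole-transcript kit, according to the labels, and each culture had 1 Affymetrix array. The authors deposited log2 values from RMA, per the submitters' processing notes, with no version given in the sources used. Their range gave the log base. Levels of single-gene probe sets were analysed (21789 of 35557), with symbols checked by Entrez ID (91 not matched, 0 changed). For the 999 genes with several, the brightest was kept, giving 19938 genes; no filter was applied. limma 3.58.1 in R 4.3.3 fitted line and treatment (residual degrees of freedom 2, prior 7.87), and p-values were adjusted over all genes by Benjamini-Hochberg. Arrays pair by the line they share. RAW264.7 against the fibroblasts in response was an interaction term (1 residual degree of freedom, infinite prior).

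On simulated data with 200 of 19938 genes changed, the IFN-β test recovered 72% of changes of 1 on the log2 scale and 100% of changes of 2 (12 false calls beside 186 true), the RAW264.7 level test 36% and 100% (11 beside 168), the L929 level test 40% and 98% (9 beside 169), and the interaction 6% and 90% (60 beside 148). In the simulation each gene had the same mean level on all arrays, with independent normal noise of variances drawn from limma's fit. A planted change had the same size on every array it affected. No array had a shifted scale, and lines differed in response only by the noise. The shares recovered may thus not hold for the real arrays. Members and lists were chosen with earlier results of these data known. Named genes were, per list, the 3 largest mean changes, the widest range and all called; per marker list the 2 brightest; and the 3 closest patterns to Ciita and to members spanning at least 2. Nlrc5, B2m, Tap2, Rfxap, Lgmn, Ctsb, Ctsz and Cst3 were named after their values were seen. Alternatives were the probe set rule, testing all probe sets, dropping genes under a mean level of 5.32 (the median), centring, quantile normalization, empirical Bayes with trend or trend and robust, a fit without line, leaving out each line, an adjusted p threshold of 0.1 and folds of 2 and 1.5. Versions were Python 3.11.15, numpy 2.4.6, pandas 2.3.3 and matplotlib 3.10.9.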

Additional observations from a re-analysis of the deposited data

Results flagged for a closer look

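The IFN-β change had opposite signs in the 2 fibroblast lines for 3 of the 7 class II genes. H2-Ab1 differed by -0.45 in L929 and 0.16 in NIH3T3, H2-Eb1 by -0.09 in L929 and 0.35 in NIH3T3, and Cd74 by 0.19 in L929 and -0.47 in NIH3T3, all on the log2 scale. Each line has 1 pair of arrays, so this difference was not tested. With the arrays centred on their medians, H2-Ab1 was at -0.45 in L929 and -0.11 in NIH3T3, with the same sign. Centred values kept opposite signs for H2-Eb1, at -0.09 in L929 and 0.08 in NIH3T3, and for Cd74, at 0.19 in L929 and -0.74 in NIH3T3.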

How the results depend on the processing

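With 6 arrays and 1 per group, the number of arrays limits every value. The count of class II genes called for IFN-β stayed at 0 under all 12 alternatives, the count for the RAW264.7 response at 0 under 8, and the count higher in RAW264.7 at 2 under 10. Of the 21 within-line differences, the count past the threshold stayed at 0 under 6 alternatives, 1 of them a 2-fold threshold, and was 1 at 1.5-fold. The filter at the median level left only Cd74 and Ctss of the 7. Means near 0 changed sign: with centring H2-Ab1 was at -0.04, H2-Eb1 -0.02, Cd74 -0.04 and Cd83 -0.05, and with quantile normalization -0.05, -0.03, -0.03 and -0.08. Leaving out each line in turn gave ranges of 0.1 to 0.52 for Ciita, -0.15 to 0.28 for H2-Ab1, -0.08 to 0.14 for H2-Eb1, -0.14 to 0.29 for Cd74, -0.16 to 0.13 for H2-DMa, -0.13 to 0.04 for H2-Ea, -0.23 to 0.13 for H2-Ob, -0.09 to 0.72 for Ctsh, -0.01 to 0.33 for Nfyc, -0.35 to 0.03 for Marchf8 and -0.10 to 0.13 for Cd83. In level between RAW264.7 and the fibroblasts, H2-Aa was at 0.06 and H2-Eb1 at 0.19 with centring, H2-Eb1 at 0.11 with quantile normalization, and leaving out a fibroblast line gave -0.20 to 0.19 for H2-Eb1 and -0.13 to 0.34 for H2-DMa. None of these values was called. Over all genes the IFN-β test called 146 genes, 14 with all probe sets, 116 to 223 with a line left out (223 without RAW264.7) and 2 with the line left out of the model. This is the fit without the replicate block, where 0 of the 7 class II genes passed. The RAW264.7 response test called 47 genes, 4 with all probe sets, 0 with centring and 10 with quantile normalization. Without RAW264.7, Socs1 (1.02, adjusted p = 0.0308) and Psmb8 (1.43, adjusted p = 7.10e-05) passed in limma. That fit has the same 1 residual degree of freedom as the interaction, from the fibroblast lines, and its spread is pooled over all genes. Psmb8 changed by 2.51 in L929 and 0.34 in NIH3T3, so its pass does not measure its own spread. The 223 calls share this limit, and the fits without NIH3T3 or without L929 also have 1 residual degree of freedom. With trend and robust variances Ifit1, Irf7, Usp18 and Cxcl10 lost their calls (adjusted p = 0.712, 0.239, 0.824 and 0.555). The cause of these changes was not tested.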
